A study of Homo sapiens with 24 samples.

Results

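The genes described here, MAP1LC3B, CAMLG, RAB9A, ZNF277, KRCC1, C11orf54 and HHLA3, are on a list of genes classed by the study as induced by MPS1i in both OE33 and SK-GT-4 cells through cGAS. They were taken from that list because 6 of them had been grouped as lacking a known immune or stress role, which was not checked here. The study's text does not name these 6 among its immune and stress genes. The other, MAP1LC3B, is best known from autophagy. Each was found by its gene name in the count table, 7 of 58735 genes. Selection on that list used the MPS1i response of Cas9 cells and its difference from cGAS KO cells, so these values are described for the 7 genes without a test. The study drew the list from these same libraries with thresholds on both contrasts, and no further threshold was applied here.

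Both OE33 and SK-GT-4 are established cell lines of human esophageal adenocarcinoma. From each line, Cas9 control clones, which keep cGAS, and cGAS KO clones, in which CGAS was targeted with CRISPR-Cas9, were treated for 48 hours with DMSO or with 500 nM of the MPS1 inhibitor reversine (MPS1i), and poly(A)-selected RNA was sequenced. The 24 libraries form 8 groups, with 1 library per batch in each and 3 batches in each cell line. Whether the lines share batches is not stated. The labels do not name the clone, so each genotype of a line was read as 1 clone, and the loss of cGAS and other differences between clones cannot be told apart. The study describes the libraries of a group as biological replicates.

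cGAS is a sensor of cytosolic DNA that makes the second messenger cGAMP, which activates STING and, through it, interferon and NF-κB target genes. Reversine blocks MPS1, a kinase of the spindle checkpoint, so that chromosomes missegregate and micronuclei form, whose DNA cGAS can bind. STING activation is also known to induce lipidation of LC3, the product of MAP1LC3B, which marks autophagosome membranes. CAMLG forms with GET1 the receptor in the endoplasmic reticulum membrane that inserts tail-anchored proteins, and RAB9A is a small GTPase of late endosomes that directs transport to the trans-Golgi network. ZNF277 encodes a zinc finger protein, KRCC1 a lysine-rich coiled-coil protein, and HHLA3 was named after an endogenous retroviral repeat with which it is associated.

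The guide against CGAS shows which part of the gene was targeted. It lies on the plus strand of chromosome 6 of GRCh38 from 73451711 to 73451730, in coding sequence of exon 1 of CGAS, which is read from the minus strand. The bases in capitals are the PAM that follows the 20-base guide:
CGAS guide: atccctccgtacgagaatggGGG

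Total counts per library were between 15561268 and 25284177. Levels are given as CPM, reads scaled to a common library size after TMM normalization. CGAS had 29.5 to 41.3 CPM in OE33 Cas9 libraries and 15.2 to 26.1 CPM in SK-GT-4 Cas9 libraries, against 2.24 to 5.81 CPM in SK-GT-4 cGAS KO libraries and 2.32 to 2.74 CPM in 5 of the 6 OE33 cGAS KO libraries. In DMSO, replicate 2 of the OE33 cGAS KO libraries had 15.3 CPM, or 328 counts, and the main summaries of the OE33 fits are also given without it, whereas values of single batches include it. Of the 5 epithelial markers, KRT8, KRT18 and KRT19 had at least 486 CPM in every library, whereas EPCAM reached down to 45.1 CPM and CDH1 to 3.79 CPM. Of the 8 markers of leukocytes, endothelium and fibroblasts, PTPRC, CD3E, VWF, COL3A1 and DCN had at most 7 counts in any library, and COL1A1 reached 71.8 CPM (1639 counts), CD14 34.5 CPM (653 counts) and PECAM1 9.27 CPM (213 counts). In SK-GT-4, the library labelled Cas9 MPS1i replicate 2 held the highest level of all 12 libraries for 5 of the 7 genes, and of the 6 Cas9 libraries for 7 of 7. Likewise, replicate 1 of the cGAS KO cells in DMSO held the highest level of the 6 cGAS KO libraries for 5 of the 7 genes. Their TMM factors were 0.904 and 0.807, the lowest of the 12 SK-GT-4 libraries, and the part of library composition in their values was not tested.

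Per kilobase of exon, RAB9A (median 23.9 CPM per kb), ZNF277 (21.8) and CAMLG (21.7) stood highest among the 7 genes in OE33, and their ranges over the 12 libraries overlapped. MAP1LC3B followed at 13.4 CPM per kb, with a range that still overlapped that of ZNF277. KRCC1 stood at 5.78 CPM per kb, below MAP1LC3B in every library, and C11orf54 (1.99) and HHLA3 (1.77) stood lowest, with overlapping ranges. In SK-GT-4, the order was MAP1LC3B (23.1 CPM per kb), KRCC1 (19.6), CAMLG (13.9), RAB9A (7.66), HHLA3 (4.98), ZNF277 (4.95) and C11orf54 (4.68), and the ranges of all neighbours in this order overlapped.

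MAP1LC3B (ENSG00000140941, chromosome 16 of GRCh38, 87383995 to 87404779, plus strand) encodes LC3B. In OE33 Cas9 cells, it had 70.4, 61.5 and 65.2 CPM in DMSO and 77.8, 84.9 and 89.9 CPM in MPS1i, with values here and below given in the order of batches 1, 2 and 3. In OE33 cGAS KO cells, it had 72.3, 54.3 and 69.5 CPM in DMSO and 73.1, 68.4 and 85.5 CPM in MPS1i. The treatments did not overlap in Cas9 cells and overlapped in cGAS KO cells, where the MPS1i library was nonetheless higher in each batch. SK-GT-4 Cas9 cells held 122, 95.6 and 93.9 CPM in DMSO and 157, 212 and 114 CPM in MPS1i. SK-GT-4 cGAS KO cells held 167, 103 and 118 CPM in DMSO and 147, 135 and 123 CPM in MPS1i. Here the treatments overlapped in both genotypes, and the highest values were those of the pair of libraries that stand apart.

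CAMLG (ENSG00000164615, chromosome 5, 134738501 to 134752160, plus strand) had 45.9, 43.5 and 48.4 CPM in DMSO and 48.8, 56.6 and 58.5 CPM in MPS1i in OE33 Cas9 cells. In OE33 cGAS KO cells, the levels were 48.0, 40.4 and 52.4 CPM in DMSO and 47.6, 39.7 and 60.4 CPM in MPS1i. Batches, more than treatment, separated the cGAS KO libraries, of which batch 2 was lowest and batch 3 highest. SK-GT-4 Cas9 cells had 31.2, 32.4 and 30.4 CPM in DMSO and 37.4, 67.5 and 34.5 CPM in MPS1i. SK-GT-4 cGAS KO cells had 48.2, 25.3 and 29.2 CPM in DMSO and 29.6, 26.02 and 28.2 CPM in MPS1i. In MPS1i, all 3 Cas9 libraries of SK-GT-4 lay above the 3 cGAS KO libraries, most widely in batch 2.

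RAB9A (ENSG00000123595, chromosome X, 13689125 to 13710506, plus strand) had 47.2, 42.0 and 38.2 CPM in DMSO and 52.2, 54.4 and 60.2 CPM in MPS1i in OE33 Cas9 cells. It had 53.7, 40.5 and 49.0 CPM in DMSO and 54.1, 45.7 and 59.6 CPM in MPS1i in OE33 cGAS KO cells. The Cas9 libraries did not overlap between treatments, and the cGAS KO libraries did. In SK-GT-4, RAB9A had 15.9, 13.6 and 14.3 CPM in DMSO and 16.5, 30.8 and 15.3 CPM in MPS1i in Cas9 cells. Its cGAS KO levels were 37.7, 15.8 and 21.5 CPM in DMSO and 23.1, 15.6 and 21.6 CPM in MPS1i. Outside batch 2, the SK-GT-4 Cas9 libraries moved little between treatments, and the lone high cGAS KO value belonged to DMSO in batch 1.

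ZNF277 (ENSG00000198839, chromosome 7, 112206588 to 112343096, plus strand) had 85.3, 82.4 and 66.9 CPM in DMSO and 91.7, 103 and 102 CPM in MPS1i in OE33 Cas9 cells. Its OE33 cGAS KO levels were 92.3, 76.0 and 68.4 CPM in DMSO and 90.9, 88.9 and 86.0 CPM in MPS1i. Only the Cas9 libraries were separated by treatment. In SK-GT-4 Cas9 cells, ZNF277 had 14.0, 14.5 and 15.3 CPM in DMSO and 17.5, 28.6 and 17.2 CPM in MPS1i, again without overlap. SK-GT-4 cGAS KO libraries had 27.4, 19.2 and 22.5 CPM in DMSO and 23.7, 22.7 and 20.6 CPM in MPS1i. All 6 cGAS KO values lay above 5 of the 6 Cas9 values.

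KRCC1 (ENSG00000172086, chromosome 2, 88027205 to 88055729, minus strand) had 9.38, 8.36 and 6.67 CPM in DMSO and 10.7, 13.7 and 12.4 CPM in MPS1i in OE33 Cas9 cells. In OE33 cGAS KO cells, it had 10.2, 10.3 and 6.98 CPM in DMSO and 10.03, 10.7 and 9.52 CPM in MPS1i. The Cas9 groups did not overlap, whereas the cGAS KO groups did. SK-GT-4 Cas9 cells had 18.3, 16.5 and 22.5 CPM in DMSO and 21.5, 41.2 and 26.4 CPM in MPS1i. SK-GT-4 cGAS KO cells had 39.7, 32.8 and 41.9 CPM in DMSO and 37.5, 36.0 and 40.0 CPM in MPS1i. Thus KRCC1 in SK-GT-4 cGAS KO cells was already, in DMSO, above 5 of the 6 Cas9 libraries.

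C11orf54 (ENSG00000182919, chromosome 11, 93741591 to 93764749, plus strand) had 12.1, 7.95 and 9.28 CPM in DMSO and 16.7, 14.1 and 16.4 CPM in MPS1i in OE33 Cas9 cells. In OE33 cGAS KO cells, it had 12.9, 8.61 and 10.4 CPM in DMSO and 14.3, 11.3 and 16.7 CPM in MPS1i. Both genotypes were higher in MPS1i in each batch. In SK-GT-4 Cas9 cells, it had 28.6, 29.3 and 25.6 CPM in DMSO and 34.7, 54.03 and 29.4 CPM in MPS1i. The SK-GT-4 cGAS KO libraries held 31.9, 26.3 and 27.0 CPM in DMSO and 25.6, 33.2 and 30.9 CPM in MPS1i. In batch 3 of SK-GT-4, the 2 genotypes differed in response by 0.0023 on the log2 scale.

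HHLA3 (ENSG00000197568, chromosome 1, 70354805 to 70385339, plus strand), listed as protein coding in the count table, had the fewest counts of the 7 genes, between 19 and 211 per library. OE33 Cas9 cells had 2.32, 0.981 and 1.59 CPM in DMSO and 3.04, 3.34 and 2.16 CPM in MPS1i. OE33 cGAS KO cells had 2.16, 2.20 and 1.83 CPM in DMSO and 2.22, 2.11 and 1.77 CPM in MPS1i. The widest step of the 7 genes in OE33, in batch 2 of the Cas9 cells, started from 19 counts. SK-GT-4 Cas9 cells had 3.64, 4.84 and 4.09 CPM in DMSO and 5.44, 12.2 and 4.49 CPM in MPS1i. SK-GT-4 cGAS KO cells had 11.3, 7.33 and 5.61 CPM in DMSO and 7.72, 6.89 and 6.55 CPM in MPS1i. The DMSO-treated cGAS KO libraries lay above all 3 DMSO-treated Cas9 libraries.

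**Figure D1:**
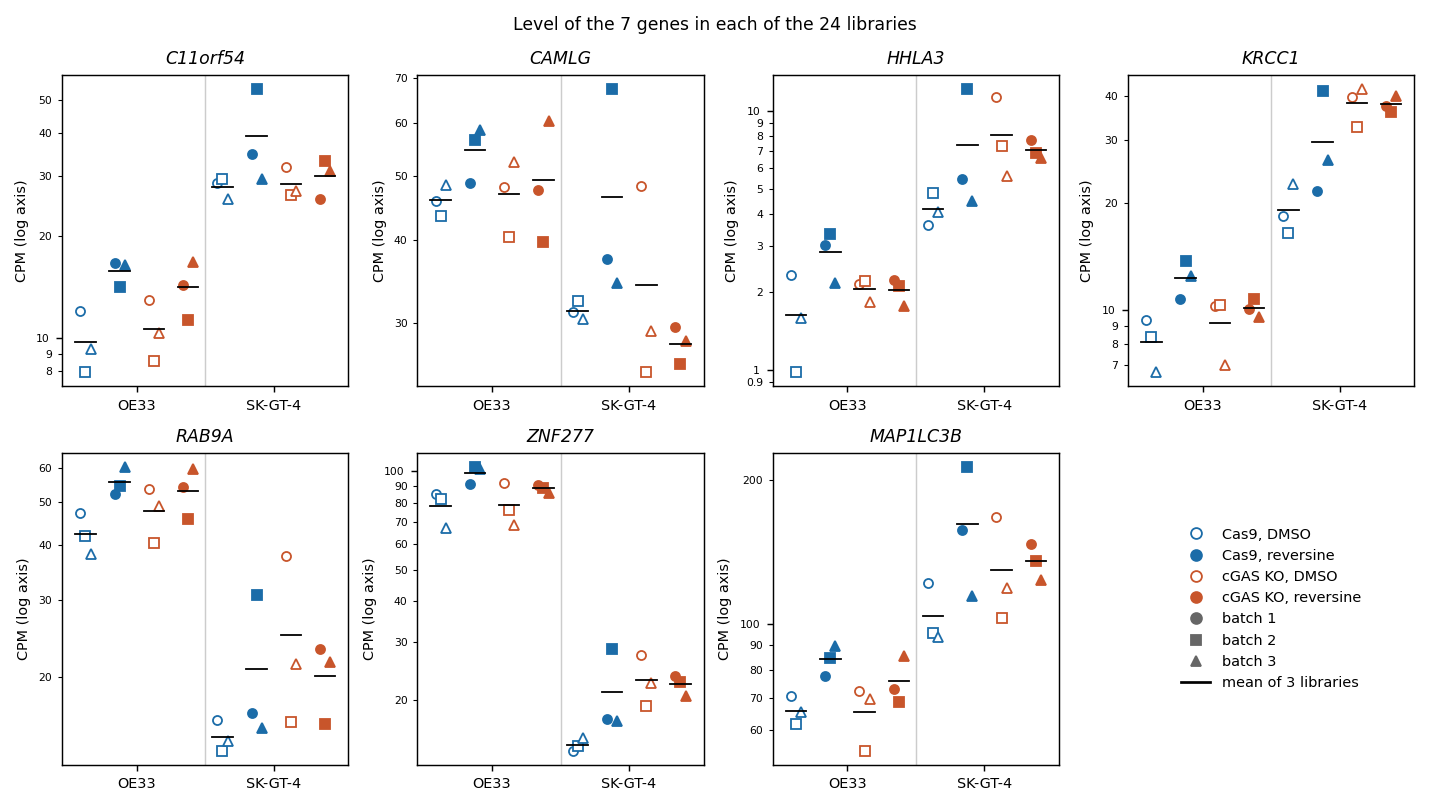
Level of each of the 7 genes in CPM (log axis) in the 24 libraries, by cell line, genotype (color), treatment (open, DMSO; filled, MPS1i) and batch (marker), with the mean of 3 libraries as a line. In SK-GT-4 Cas9 cells, the filled square of batch 2 stands highest of its genotype in all 7 panels.

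In OE33 Cas9 cells, the log2 difference between MPS1i and DMSO, which chose these genes, was above 0 for 7 of 7, with a median of 0.37. It was largest for HHLA3 (0.79, standard error 0.29), C11orf54 (0.68, standard error 0.15) and KRCC1 (0.58, standard error 0.17). The other 4 genes lay between 0.23 (CAMLG, standard error 0.12) and 0.37 (RAB9A, standard error 0.12). In OE33 cGAS KO cells, the difference was above 0 for 6 of 7 (median 0.17), and C11orf54 had the largest value there too (0.42, standard error 0.15). The Cas9 value exceeded the cGAS KO value by between 0.12 for MAP1LC3B (standard error 0.16) and 0.80 for HHLA3 (standard error 0.41), with a median of 0.21. Of all genes tested, 0.0049% passed for MPS1i against DMSO in OE33 Cas9 cells and 0% in OE33 cGAS KO cells. A gene passed, or was called, where its Benjamini-Hochberg adjusted p from edgeR did not exceed 0.01. That is 1 gene and 0 genes of 20426, with 1420 and 1420 genes at an unadjusted p under 0.05. The members were chosen on this contrast, and nothing is read from the comparison with all genes. In Cas9 cells of both lines, the study called far more genes at the same adjusted p, with DESeq2 after ComBat batch correction. DESeq2 was not used here for the MPS1i responses.

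In SK-GT-4 Cas9 cells, the difference was above 0 for 7 of 7, with a median of 0.55 and a narrow range, from 0.47 for C11orf54 (standard error 0.24) to 0.73 for HHLA3 (standard error 0.36). Among cGAS KO cells of SK-GT-4, the difference was above 0 for 2 of 7, MAP1LC3B (0.044, standard error 0.25) and C11orf54 (0.038, standard error 0.24), and lowest for CAMLG (-0.31, standard error 0.31). The Cas9 value exceeded the cGAS KO value by a median of 0.67, between 0.43 for C11orf54 (standard error 0.34) and 0.93 for HHLA3 (standard error 0.50). Of all genes, 0% were called in SK-GT-4 Cas9 cells and 0% in cGAS KO cells, with 566 and 317 of 22782 genes at an unadjusted p under 0.05. Leaving out replicate 2 of SK-GT-4 Cas9 cells in MPS1i, the median response of Cas9 cells was 0.21, with 6 of 7 above 0, and the median difference from cGAS KO cells was 0.27. When replicate 1 of SK-GT-4 cGAS KO cells in DMSO was left out instead, the cGAS KO response was above 0 for 7 of 7, with a median of 0.12, and the difference had a median of 0.41. With both left out, a choice made after seeing the data, the median difference was 0.16, it was above 0 for 6 of 7, and RAB9A had -0.015. In OE33, leaving out the library labelled cGAS KO DMSO replicate 2 gave a median difference of 0.28, again above 0 for 7 of 7, and a cGAS KO response with a median of 0.13, above 0 for 7 of 7.

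Within batches, the Cas9 response was above 0 in each of the 3 batches for 7 of 7 genes in both cell lines. The median over the 7 genes of the difference between Cas9 and cGAS KO responses was 0.13, 0.41 and 0.28 in batches 1, 2 and 3 of OE33 and 0.60, 1.02 and 0.22 in those of SK-GT-4. In batches 1, 2 and 3, 55.6%, 48.1% and 50.4% of the 13283 genes with a mean of at least 1 CPM had a difference above 0 in OE33, against 44.02%, 43.1% and 47.6% for SK-GT-4. The single value below 0 among the 42 of the 7 genes was that of HHLA3 in batch 3 of SK-GT-4 (-0.090). How the genotypes came to differ was not alike in the batches of SK-GT-4. In batch 1, the Cas9 median was 0.28 and the cGAS KO median -0.32, with 0 of 7 genes above 0 in cGAS KO cells. In batch 2, the Cas9 median was 1.15 and the cGAS KO median 0.14. In batch 3, both were small, 0.18 and 0.012. Batches 1 and 2 are those that hold the libraries that stand apart.

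**Figure D2:**
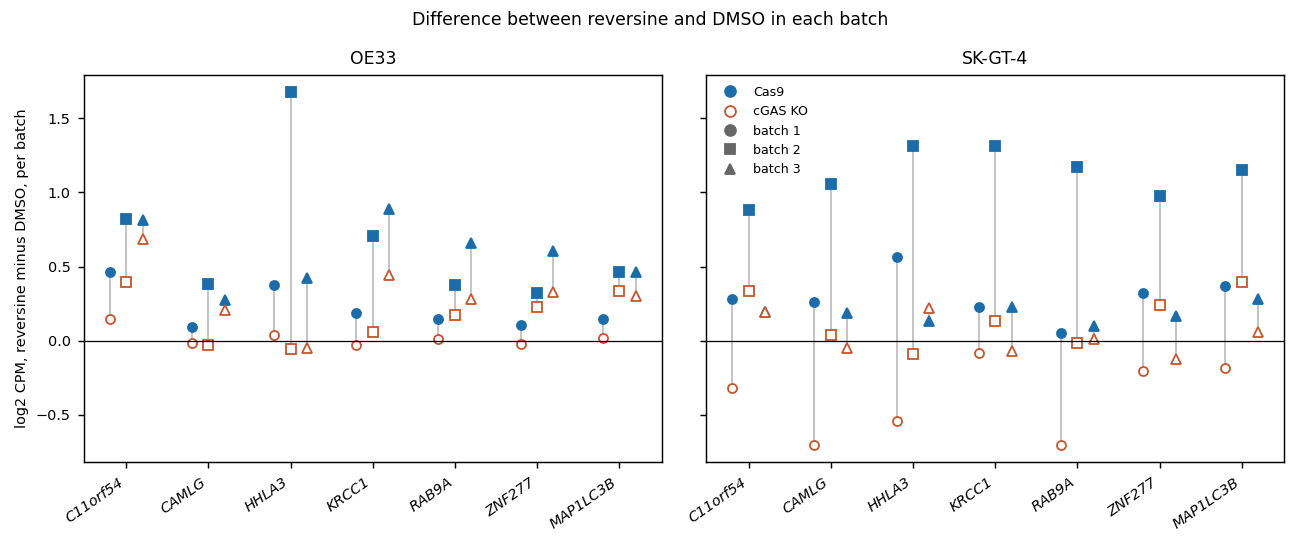
Difference in log2 CPM between MPS1i and DMSO in each batch (marker) for Cas9 (filled) and cGAS KO cells (open) of both cell lines, with a grey line joining the genotypes of a batch. In OE33 the Cas9 marker lies above its cGAS KO marker for each gene and batch, and in SK-GT-4 for each but HHLA3 in batch 3 (-0.090).

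All 3 MPS1i libraries lay above all 3 DMSO libraries for 6 of the 7 genes in OE33 Cas9 cells, the exception being HHLA3, and for 3 of 7 in SK-GT-4 Cas9 cells, CAMLG, ZNF277 and C11orf54. This was so for 0 of 7 in the cGAS KO cells of either line. Over the 13283 genes, the share was 5.1% and 1.8% in OE33 Cas9 and cGAS KO cells and 3.8% and 1.9% in SK-GT-4. These separations, like the responses, belong to the contrast by which the genes were chosen.

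**Figure D3:**
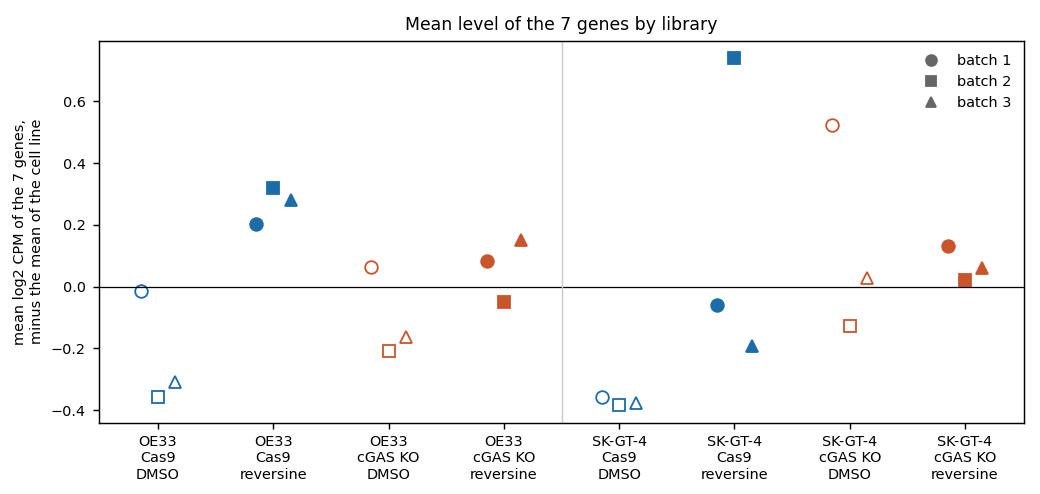
Mean log2 CPM of the 7 genes in each library after subtraction of each gene's mean in its cell line, by group, with the batch as marker. The values of SK-GT-4 Cas9 MPS1i replicate 2 (0.74) and replicate 1 of SK-GT-4 cGAS KO in DMSO (0.52) are the highest of the 24.

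Whether the genes differed between the genotypes irrespective of treatment was not itself used to choose them. In a balanced design, this average is independent of the MPS1i response only where the groups vary equally. In SK-GT-4 they did not, as for RAB9A, with a log2 standard deviation of 0.549 in Cas9 MPS1i and 0.116 in Cas9 DMSO libraries. Nor did they in OE33, where ZNF277 had 0.219 in DMSO and 0.040 in MPS1i libraries of cGAS KO cells. HHLA3 there had 0.583 in Cas9 and 0.139 in cGAS KO libraries in DMSO. The average is therefore not free of the choice of the genes in either line. The values of both genotypes overlapped for each of the 7 genes in both lines. The share of all genes that overlapped was not counted, so nothing is read from this. In OE33, the difference of cGAS KO from Cas9 cells, averaged over treatments, was between -0.092 for MAP1LC3B (standard error 0.082) and 0.040 for RAB9A (standard error 0.088). In edgeR, 0 of 7 genes passed, against 9.39% of all genes tested. None of the 7 had an unadjusted p under 0.05, and DESeq2 called 0 as well, as did edgeR without replicate 2 of OE33 cGAS KO cells in DMSO. In SK-GT-4, 5 of the 7 genes had higher values in cGAS KO cells (median 0.34, against -0.015 for all genes), and 0 of 7 passed, against 6.26% of all genes. DESeq2 called 1, and 1 had an unadjusted p under 0.05 in edgeR, in each case KRCC1.

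KRCC1 had the largest genotype difference of the 7 genes in SK-GT-4. Its level in Cas9 cells was between 16.5 and 41.2 CPM (median 22.0, n = 6) and in cGAS KO cells between 32.8 and 41.9 CPM (median 38.6, n = 6). The groups overlapped through 1 Cas9 library, MPS1i replicate 2. The log2 difference was 0.69 (standard error 0.19, 1.61-fold, adjusted p = 0.0344 from edgeR), and 0.69 (adjusted p = 0.00944) in DESeq2. It was 0.89 (adjusted p = 0.000836 from edgeR) without that library and 0.83 (adjusted p = 1.06e-07 from edgeR) without both libraries that stand apart. That library held the highest Cas9 level of KRCC1, so leaving it out raises the difference by construction. No conclusion is drawn from the p-values of these fits. These fits are also unbalanced, which is a further reason why they are not independent of the MPS1i response. ZNF277 had 14.0 to 28.6 CPM in Cas9 cells (median 16.3, n = 6) and 19.2 to 27.4 CPM in cGAS KO cells (median 22.6, n = 6), which overlapped through the same library. Its difference of 0.38 (standard error 0.18, adjusted p = 0.218 from edgeR) did not pass. It was 0.44 (adjusted p = 0.0078 from edgeR) without both libraries, with the same limit as for KRCC1. HHLA3 (0.48, standard error 0.25), RAB9A (0.34, standard error 0.25) and MAP1LC3B (0.044, standard error 0.18) did not pass, nor did C11orf54 (-0.16, standard error 0.17) and CAMLG (-0.29, standard error 0.22).

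The genotype difference in SK-GT-4 minus that in OE33 was tested in a fit of all 24 libraries, where 0 of 7 genes passed, against 5.33% of all genes. It is made of the averages above and, like them, is not free of the choice of the genes. DESeq2 called 0 too, and 2 genes had an unadjusted p under 0.05 in edgeR, KRCC1 (0.73, standard error 0.23, adjusted p = 0.0476) and ZNF277 (0.44, standard error 0.20, adjusted p = 0.228). KRCC1 passed when replicate 2 of SK-GT-4 Cas9 cells in MPS1i was left out (0.93, adjusted p = 0.000795 from edgeR). That library held the highest Cas9 level of KRCC1, so leaving it out raises this difference by construction, and no conclusion is drawn from that pass. Without replicate 2 of OE33 cGAS KO cells in DMSO, 0 of 7 passed and the median was 0.25, against 0.28 with it.

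Most genes around KRCC1 and ZNF277 had differences of the same sign between the SK-GT-4 clones. Of the 39 genes with at least 1 CPM within 5 Mb on either side of KRCC1, 32 had a higher value in SK-GT-4 cGAS KO cells (median 0.30, against 0.13 for chromosome 2). Around ZNF277, 25 of 26 genes were higher, with a median of 0.48, against 0.46 for chromosome 7. In OE33, the same windows had medians of -0.13 and -0.098. Windows around the other 5 genes in SK-GT-4 had medians between -0.067 (CAMLG) and 0.33 (C11orf54). C11orf54 (-0.16), RAB9A (0.34) and MAP1LC3B (0.044) had the opposite sign to their windows, and HHLA3 and CAMLG had the same sign. Epithelial markers also differed between the SK-GT-4 clones. Of the 5 markers, 3 were called higher in cGAS KO cells, CDH1 (3.53), EPCAM (2.28) and KRT19 (1.28), and their summed level was 3640 to 8630 CPM in Cas9 libraries and 9104 to 18477 CPM in cGAS KO libraries. Without both libraries that stand apart, 5 of the 5 were called higher. In OE33, 0 of the 5 markers were called, with 1 at an unadjusted p under 0.05. Of the 8 markers of leukocytes, endothelium and fibroblasts, 6 were tested in SK-GT-4 and 0 were called, with 3 lower at an unadjusted p under 0.05, and their summed level was 43.3 to 83.1 CPM in Cas9 and 15.5 to 85.8 CPM in cGAS KO libraries. Without both libraries, 3 of the 6 were called lower in cGAS KO cells, CD14, PECAM1 and COL1A1. In OE33, 4 of the 8 were tested and 1, CD14, was called higher in cGAS KO cells (1.09, adjusted p = 0.000232 from edgeR), with summed levels of 2.32 to 6.76 CPM in Cas9 and 4.72 to 14.02 CPM in cGAS KO libraries. The part of these shifts in the values of the 7 genes was not tested.

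Between the cell lines, most of the 7 genes differed. In Cas9 clones, averaged over treatments, 6 of 7 passed between SK-GT-4 and OE33, 4 higher and 2 lower in SK-GT-4, against 35.7% of all genes tested. The median over all genes was 0.20. ZNF277 was 5.03-fold lower in SK-GT-4 (log2 difference -2.33, standard error 0.16, adjusted p = 1.47e-11 from edgeR) and RAB9A 2.79-fold lower (-1.48, standard error 0.21, adjusted p = 1.74e-06 from edgeR). C11orf54 was 2.66-fold higher in SK-GT-4 (1.41, standard error 0.17, adjusted p = 3.00e-07 from edgeR), HHLA3 2.56-fold higher (1.35, standard error 0.26, adjusted p = 0.000144 from edgeR) and KRCC1 2.38-fold higher (1.25, standard error 0.17, adjusted p = 1.92e-06 from edgeR). MAP1LC3B was 1.73-fold higher (0.79, standard error 0.17, adjusted p = 0.000337 from edgeR). CAMLG did not pass (-0.40, standard error 0.18, adjusted p = 0.0774 from edgeR). For each of the 6 genes that passed, the 12 OE33 libraries and the 12 SK-GT-4 libraries did not overlap, as was the case for 27% of the 13283 genes. ZNF277 had 66.9 to 103 CPM in OE33 (median 87.4, n = 12) and 14.0 to 28.6 CPM in SK-GT-4 (median 19.9, n = 12). Without batch 2 the differences of HHLA3 (0.96, adjusted p = 0.0150 from edgeR) and MAP1LC3B (0.68, adjusted p = 0.0128 from edgeR) did not pass. Genes within 5 Mb of ZNF277 were lower in SK-GT-4 as well, with a median of -1.70 and 6 of 26 above 0, against -0.43 for chromosome 7. The window around RAB9A had a median of -0.65, against -0.60 for chromosome X. For C11orf54, whose own difference was 1.41, the window had a median of -0.079.

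**Figure D4:**
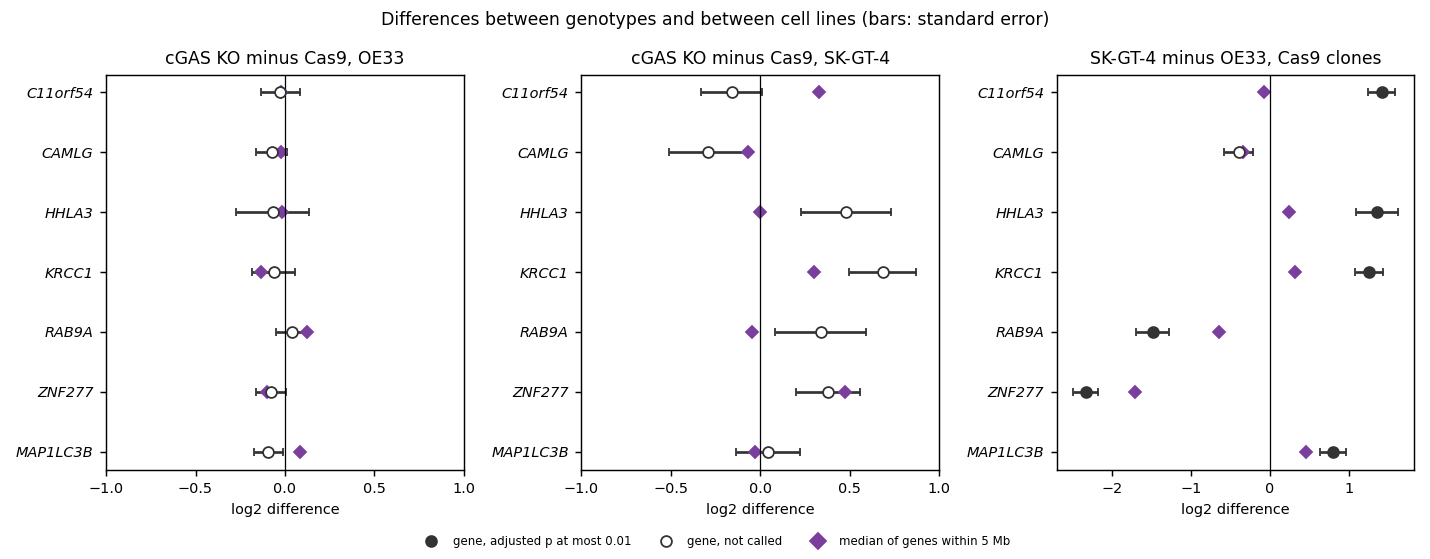
Log2 difference with its standard error for the 7 genes, for cGAS KO against Cas9 cells in OE33 and in SK-GT-4, averaged over treatments, and for SK-GT-4 against OE33 in Cas9 clones, filled where the adjusted p was at most 0.01. Diamonds give the median of the genes within 5 Mb, which for ZNF277 stood at -1.70 between the cell lines.

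Counts of some of these genes could be shared with neighbours or copies. MAP1LC3B2 shares 34.5% of the MAP1LC3B transcript at 95% identity or more, and its counts were 2.52% to 4.14% of those of both genes together. RAB9B had at most 1 count, and the pseudogenes named after RAB9A and MAP1LC3B had 0. C11orf54 shares 20% of its transcript with a single other gene, and CAMLG, HHLA3, KRCC1, RAB9A and ZNF277 share 0%. TAF1D overlaps C11orf54 on the opposite strand, and strand was not stated for the counting, so their reads may not be told apart. In Cas9 and cGAS KO cells, the response of TAF1D to MPS1i was 0.18 and 0.021 for OE33, against 0.59 and -0.42 for SK-GT-4. FBXO31, which overlaps MAP1LC3B on the opposite strand, had -0.14 and 0.13 for OE33, against -0.052 and -0.044 for SK-GT-4, unlike MAP1LC3B. Genes that start beside ZNF277 and HHLA3 on the opposite strand are DOCK4, 177 bases away, and ANKRD13C, 71 bases away. In Cas9 and cGAS KO cells of OE33, the response of DOCK4 was 0.27 and -0.16 and that of ANKRD13C 0.19 and 0.0059, so that both neighbours, like the 7 genes, had the higher value in Cas9 cells. In those of SK-GT-4, DOCK4 had 0.096 and 0.56 and ANKRD13C -0.10 and -0.030.

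The other genes of the pathways showed no call for MPS1i in either genotype of either line. Almost no gene did, with 0.0049% of all genes called in OE33 Cas9 cells and 0% in OE33 cGAS KO cells and in both genotypes of SK-GT-4. Over all genes, 1420 of 20426 in OE33 Cas9 cells and 566 of 22782 in SK-GT-4 Cas9 cells had an unadjusted p under 0.05. Of 33 core autophagy genes tested in OE33 Cas9 cells, 0 were called by edgeR, 8 were higher and 1 was lower at an unadjusted p under 0.05, and the median was 0.091, against 0.0051 for all genes. GABARAPL1, a relative of LC3, had 0.99 (standard error 0.25) in OE33 Cas9 cells and 0.95 (standard error 0.25) in OE33 cGAS KO cells. The cargo receptor OPTN had 0.56 (standard error 0.15) in Cas9 and 0.48 (standard error 0.15) in cGAS KO cells of OE33. In SK-GT-4 Cas9 cells, 0 of 34 were called, with 3 higher and 0 lower at an unadjusted p under 0.05, and a median of 0.078. The genotype difference of the response had a median over these genes of 0.014 (OE33) or -0.061 (SK-GT-4). In SK-GT-4, MAP1LC3A (1.36, standard error 0.49) and GABARAPL2 (1.08, standard error 0.57), both relatives of LC3B, had larger values than MAP1LC3B (0.58), which was chosen on this contrast, and BECN1 had -0.78 (standard error 0.47). Of the 6 genes of tail-anchored protein insertion, 0 were called for MPS1i in Cas9 cells of either line and 0 had an unadjusted p under 0.05, with medians of -0.13 (OE33) or -0.0072 (SK-GT-4). GET1, the partner of CAMLG, had -0.15 in OE33 (standard error 0.14) and 0.41 in SK-GT-4 Cas9 cells (standard error 0.51). For late endosome to Golgi transport, 0 of 11 were called and 0 had an unadjusted p under 0.05 in Cas9 cells of either line, with medians of 0.077 (OE33) or -0.088 (SK-GT-4).

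Between genotypes, averaged over treatments, 1 of 33 autophagy genes was called higher and 1 lower without cGAS in OE33, where 9.39% of all genes were called, OPTN (0.60, adjusted p = 0.000745 from edgeR) and RB1CC1 (-0.38, adjusted p = 0.009 from edgeR). Without replicate 2 of OE33 cGAS KO cells in DMSO, 3 were called higher, OPTN and MAP1LC3A (0.95) among them, and 2 lower, RB1CC1 and ATG12 (-0.52). In SK-GT-4, 0 of 34 were called higher and 2 lower, against 6.26% of all genes, ATG7 (-0.91, adjusted p = 0.00237 from edgeR) and ATG12 (-0.77, adjusted p = 0.00628 from edgeR), which act in the conjugation of LC3 to lipid. Without both libraries that stand apart, 2 were called higher and 6 lower, ATG7, ATG12 and MAP1LC3A (-1.19) among the latter. MAP1LC3A thus went opposite ways in OE33 and SK-GT-4 in the fits with libraries left out. The larger fitted value of MAP1LC3C in SK-GT-4 rested on at most 6 counts per library. Of the tail-anchored insertion genes, BAG6 was called lower in OE33 cGAS KO cells (-0.37, adjusted p = 0.00476 from edgeR) and 0 in SK-GT-4, with 1 at an unadjusted p under 0.05. Without the OE33 library BAG6 and GET3 were called lower, and without both SK-GT-4 libraries 1 of 6 was called lower in SK-GT-4. Of the late endosome genes, 0 of 11 were called in either line, with 3 in OE33 and 4 in SK-GT-4 lower at an unadjusted p under 0.05, and 3 of 11 were called lower in SK-GT-4 without both libraries.

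Apart from MAP1LC3B, the study's text names 7 genes of the same list as immune and stress examples, CXCL8, CXCL2, IRF1, IFIT2, CHAC1, ZFAND2A and TRIM16. They may not be all such genes on it. They were chosen by the same contrasts and are given side by side only. Their median MPS1i response was 0.69 in Cas9 and 0.45 in cGAS KO cells of OE33, where the genes described here had 0.37 and 0.17. In SK-GT-4, it was 1.19 and 0.12, where they had 0.55 and -0.076. The genotype difference of the response had a median of 0.20 against 0.21 for OE33, and of 1.34 against 0.67 for SK-GT-4. Averaged over treatments, 1 of these genes, CXCL8 (1.53), was called higher in cGAS KO cells of OE33. In those of SK-GT-4, 1 was called higher and 1 lower, CHAC1 (1.29) and IFIT2 (-1.81). Without the libraries in doubt, the counts were 1 higher in OE33, and 3 higher and 1 lower in SK-GT-4. CXCL8 was then among those called higher in both lines (1.44 in OE33, 0.97 in SK-GT-4).

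Across the 24 libraries, with log2 CPM centred in each cell line, the genes most like the mean of the 7 among 13276 others were ZFAND2A (Pearson's r = 0.888), DUSP28 (0.866) and DDIT3 (0.863). ZFAND2A encodes a stress-induced protein that associates with the proteasome, and DDIT3 the stress transcription factor CHOP. ZFAND2A was also nearest to RAB9A (0.912) and to MAP1LC3B (0.889). HIST1H3G, a histone H3 gene, was nearest to KRCC1 (0.844) and to ZNF277 (0.869), SELENOM, a selenoprotein of the endoplasmic reticulum, to CAMLG (0.895), C5orf56 to C11orf54 (0.826) and LBX2, a homeobox gene, to HHLA3 (0.775). The points share libraries, batches and depth, and they include the MPS1i contrasts by which the 7 genes and ZFAND2A were chosen, so these correlations describe that choice too. Among the 7 genes, the 21 pairs had a median r within groups of 0.29 in OE33 (between -0.36 and 0.89, with 14 above 0) and of 0.78 in SK-GT-4 (between 0.45 and 0.95, with 21 above 0), where the libraries that stand apart are included.

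Promoter sequence from RefSeq (GRCh38.p14, 250 bases before to 50 bases after a start) was held for 6 of the 7 genes in 7 windows, 2 of them for C11orf54. For 6 of 8 motifs searched on both strands, 0 of the 7 windows held a match. These were the interferon-stimulated response element core GAAANNGAA, found in 8.11% of the 35116 windows of all genes, the NF-κB consensus (5.91%), the C/EBP-ATF composite site TGATGNAA (3.62%), the CRE core TGACGT (7.98%), the E-box CACGTG (7.26%) and the heat shock element core GAANNTTC (6.77%). The gamma-activated site TTCNNNGAA, in 7.66% of all windows, lay at position -117 from a RefSeq start of C11orf54, which is not the gene start given above. The antioxidant response element core TGACNNNGC, in 13.3%, lay at position -46 from a RefSeq start of MAP1LC3B, again not the gene start given above. These 2 stretches, on the plus strand at chr11:93741496-93741590 and chr16:87392280-87392308, are shown for those matches, which are in capitals:
C11orf54: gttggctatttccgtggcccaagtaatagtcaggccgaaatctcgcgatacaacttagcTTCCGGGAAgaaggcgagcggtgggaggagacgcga
MAP1LC3B: gcgagtcaccTGACCAGGCtgcgggctga
A match describes these letters, and its absence says nothing of a factor's binding elsewhere.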

How the data were processed

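The authors aligned the paired-end reads with HISAT2 2.0.5 to GRCh38 and deposited raw counts per gene from featureCounts 1.5.0, without normalization. The annotation release, the strand setting and the handling of multimapping reads are not given in the sources used here. Genes were joined by identifier, since 175 names were given to more than 1.

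As in the study, genes were kept with 5 or more counts in all and counts in 4 or more libraries, all 7 members among them, which left 20426 genes in OE33, 22782 in SK-GT-4 and 25181 over both lines. Each line's 12 libraries were fitted with edgeR 4.0.16 in R 4.3.3, with TMM factors, group terms and batch as the block, and its quasi-likelihood test was adjusted over all genes (Benjamini-Hochberg). The call threshold was an adjusted p of 0.01. Comparisons between the lines used all 24 libraries, with a block per line and batch for the genotype difference and none for the line difference. The batch numbers equal the replicate numbers in the labels. The deviations from group means of same-batch libraries of a genotype correlated with a median of 0.603 in OE33 (lowest 0.376) and 0.434 in SK-GT-4 (lowest 0.0963). Those of different genotypes in a batch, which share the block too, had medians of 0.448 in OE33 (lowest 0.0630) and 0.26 in SK-GT-4 (lowest -0.662). Replicates varied by 15.0% in OE33 and by 34.0% in SK-GT-4 (edgeR's biological coefficient of variation). Log2 CPM used a prior count of 2. No pair of libraries was identical. Fits were tested on simulated data.

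The members, pathway lists and markers were chosen with earlier results of these data known. The text names the members, CGAS, genes of the lists, neighbours that overlap or start within 1000 bases, copies by symbol, and the genes nearest by Pearson correlation. Genes of a list were named because they were called or had a large log2 value, but not always the largest. For the MPS1i response in OE33, MAP1LC3A (0.61 in Cas9 cells) and GABARAP (0.90 in cGAS KO cells) exceeded OPTN, which was named. GET1 and GET3 were matched to WRB and ASNA1. Shared transcript sequence was searched with BLAST 2.17.0. Alternatives were DESeq2 1.42.0, its size factors, no filter, no block, a threshold of 0.05 and left-out batches or libraries.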

Additional observations from a re-analysis of the deposited data

How the results depend on the processing

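Of 252 alternative values of single genes in comparisons with a test, 235 kept direction and side of the threshold, 8 turned sign, 7 newly passed and 2 no longer passed. Of 329 for the MPS1i responses, which had no test, 20 turned sign, 15 of them for cGAS KO and 2 for Cas9 cells of SK-GT-4, 1 for the difference between these, and 2 for cGAS KO cells of OE33. The SK-GT-4 cGAS KO response was above 0 for 2 of the 7 genes, and for 5, 0 and 1 without batch 1, 2 and 3. The 8 in tested comparisons were genotype differences. With 1 batch left out, OE33 values ran from -0.17 to 0.070 for HHLA3, from -0.079 to 0.022 for C11orf54, from -0.15 to 0.049 for CAMLG and from -0.015 to 0.14 for RAB9A, and SK-GT-4 values ran from -0.039 to 0.22 for MAP1LC3B (-0.034 without batch 1) and from -0.53 to 0.010 for CAMLG. MAP1LC3B had -0.038 without replicate 1 of SK-GT-4 cGAS KO in DMSO. At an adjusted p of at most 0.05, 1 of the 7 genes passed for the SK-GT-4 genotype difference and 1 for its difference from OE33, and the DESeq2 Wald test called 1 for the first. Without SK-GT-4 Cas9 MPS1i replicate 2 the numbers were 1 and 1, and without both libraries that stand apart 2 and 2. These libraries stood out through the levels of the 7 genes themselves, so no conclusion is drawn from these numbers. The median genotype difference of the SK-GT-4 response was 0.27 to 0.85 with a batch or library left out and 0.16 without both.

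Counts over all genes moved more. For the OE33 genotype difference, 1917 genes were called, against 2940 with no filter, 226 with no replicate block, 134 to 2973 with a batch or library left out. For MPS1i in OE33 Cas9 cells, the 1 gene became 96 with no filter, 0 with no replicate block and 0 to 1 with a batch left out, and in cGAS KO cells 152 were called with no filter. The SK-GT-4 genotype difference had 1427, against 2816 in DESeq2, 33 to 2078 with a batch or library left out and 4816 without both libraries, when MPS1i gave 23 genes in Cas9 and 4 in cGAS KO cells. The difference between lines had 1341, against 677 with no replicate block, 2273 in DESeq2, 119 to 2034 with a batch or library left out and 3267 without both, and the line comparison 8998, with 5884 to 7405 when a batch was left out. Leaving out the pairing by batch changed no call of the 7 genes. Depth limits HHLA3 most, with 19 counts at its lowest, and 3 libraries per group limit every comparison.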
